A study of Homo sapiens with 24 samples.

Results

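The transcripts described here are those of fatty acid synthesis and desaturation, 10 genes taken as a list: SREBF1, ACLY, ACACA, FASN, SCD, ELOVL5, ELOVL6, FADS1, FADS2 and ACSL3. Each gene was read from the probe set annotated to it alone that had the highest mean over all 24 arrays. By this rule 8 of the 10 genes had a value, out of 19775 genes with a probe set of their own, and all 8 passed the filter on low levels that left 14335 genes to test. FADS1 was represented by 3 probe sets that also carry a microRNA gene's symbol, and ACSL3 by no probe set in the annotation used here, so neither has a value.

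The arrays measured BT-474, a long-established line from a breast cancer that carries extra copies of ERBB2 and expresses the estrogen receptor. Cells had received siRNA against HER2, the receptor tyrosine kinase that ERBB2 encodes, or a control siRNA, and all groups share this transfection. Each was then given 10 nM estrogen or the vehicle, 0.001% ethanol, for 4 or 24 h, so that vehicle and estrogen at either time with either siRNA made 8 groups of 3 arrays. For HER2 siRNA estrogen 4 h replicate 3 a single label gives 24 h and the rest give 4 h, where it was placed. The series title names HER2 signalling, the coactivator SRC-3, the transcription factor E2F1 and DNA synthesis, and the question addressed here is how the listed genes follow HER2 loss and estrogen.

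Values are log2 levels from robust multi-array averaging (RMA), a summary of each probe set on a common scale, so a log2 difference of 1 is a 2-fold change. Differences are given as the difference ± its standard error, and "rose" and "fell" are used of those with an adjusted p under 0.05 by limma over all 14335 genes. For arrays it is their number, 3 in a group, that limits the precision. The labels do not say whether the 3 came from separate cultures, and p-values then measure only the spread between these arrays. Levels of different genes are not set against each other, since each probe set has its own response. In bulk RNA, fewer cells of a kind and less RNA per cell cannot be told apart.

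Cells build saturated fatty acids from citrate. ATP citrate lyase (ACLY) splits citrate into acetyl-CoA, acetyl-CoA carboxylase (ACACA) makes malonyl-CoA from it, and fatty acid synthase (FASN) joins these units into palmitate. ELOVL6 then lengthens palmitate toward stearate, SCD puts the first double bond into stearate and palmitate, and FADS1, FADS2 and ELOVL5 desaturate and lengthen polyunsaturated fatty acids. ACSL3 attaches coenzyme A to long-chain fatty acids. SREBF1 encodes SREBP-1, a membrane-bound transcription factor that is cut free when sterols are low or insulin and growth factor signals are high and that switches on most of these genes. Tumour cells, HER2-positive breast cancer cells among them, are known for making fatty acids of their own.

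The promoters of SCD and ELOVL5 are shown because their transcripts went different ways: SCD was among the genes that fell furthest with HER2 siRNA, and ELOVL5 was the one measured gene that did not fall. Each run is the 250 bases before the gene's start, read 5′ to 3′ on the gene's own strand, from RefSeq on GRCh38.p14. The SCD window is chr10:100346983-100347232 (plus strand) and that of ELOVL5 chr6:53348951-53349200 (minus strand). Capitals mark CCAAT, a box bound by NF-Y, on either strand (so also ATTGG), and CACGTG, an E-box that SREBP-1 and other helix-loop-helix factors can bind.
SCD: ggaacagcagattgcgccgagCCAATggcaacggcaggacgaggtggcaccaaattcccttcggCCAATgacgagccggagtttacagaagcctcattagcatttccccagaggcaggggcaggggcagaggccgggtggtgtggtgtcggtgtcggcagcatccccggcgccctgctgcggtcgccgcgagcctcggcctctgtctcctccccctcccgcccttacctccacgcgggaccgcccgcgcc
ELOVL5: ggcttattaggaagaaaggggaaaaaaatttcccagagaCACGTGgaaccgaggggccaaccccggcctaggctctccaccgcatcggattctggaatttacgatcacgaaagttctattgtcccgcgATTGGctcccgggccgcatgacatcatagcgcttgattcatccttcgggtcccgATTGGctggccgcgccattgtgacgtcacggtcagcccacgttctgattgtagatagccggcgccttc

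The SCD window holds 2 CCAAT boxes and the ELOVL5 window 2 CCAAT boxes and 1 E-box. RefSeq windows matched 9 of the 10 genes, with 13 windows in all, and FASN had no entry. Some windows precede a start that lies inside the gene's full span, as for ELOVL6 and ACLY, and these are not shown. CCAAT stood in 7 of the 13 windows, those of 5 genes, against 32% of all 35116 promoter windows. The 2 ACLY windows overlap, so the same box can count in both. ACSL3, another of the 5 genes, has no expression value here. A sterol response element spelled TCACNCCAC was in none of the 13 (0.883% of all windows), and an estrogen response element, GGTCA and TGACC with any 3 bases between them, was in none (0.0399%). The E-box was in the ELOVL5 window and no other of the 13 (6.34% of all windows). Both strands were searched for each motif, the motifs did not overlap in these windows, and a match or its absence describes these letters in this window only.

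HER2 siRNA lowered the targeted transcript. ERBB2 (chr17:39688094-39728658) lay between 13.39 and 13.94 on the 12 control siRNA arrays and between 11.86 and 12.69 on the 12 HER2 siRNA arrays, with no overlap. Its difference averaged over the 4 conditions was -1.34 ± 0.06, and 39.6% of the control level remained (36.5 to 42.9%, where such ranges are 95% confidence intervals). By condition 33.9% and 39.4% remained with vehicle (4 h, then 24 h) and 39.2% and 46.8% with estrogen. Estrogen at 24 h lowered ERBB2 with control siRNA (-0.46 ± 0.11, adjusted p = 0.0077 by limma). With HER2 siRNA the estrogen difference of ERBB2 at 24 h was -0.21 ± 0.11 and did not pass. ACACA and ACLY are listed genes near it on the chromosome. ACACA ends 2.28 Mb before ERBB2 and ACLY starts 2.14 Mb after it, and how many copies of either the line carries was not measured here.

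With HER2 siRNA, 7 of the 8 measured genes fell when the 4 conditions were averaged, and none rose. Of all 14335 genes, 29.1% fell, 30.1% rose and 59.2% passed the threshold in either direction, so a fall is common in this comparison. The median difference of the 8 genes was -0.69, against -2.3e-06 over all tested genes. The falls ran from -1.56 for ELOVL6 to -0.33 for SREBF1, and ELOVL5 differed by 0.13 in the other direction without passing. In the plot of levels by array, 5 of the genes (ACLY, ACACA, SCD, ELOVL6 and FADS2) have their 12 HER2 siRNA arrays wholly below their 12 control siRNA arrays. How many of all tested genes separate in this way was not counted, so this describes these arrays and sets the list apart from no other genes.

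**Figure D1:**
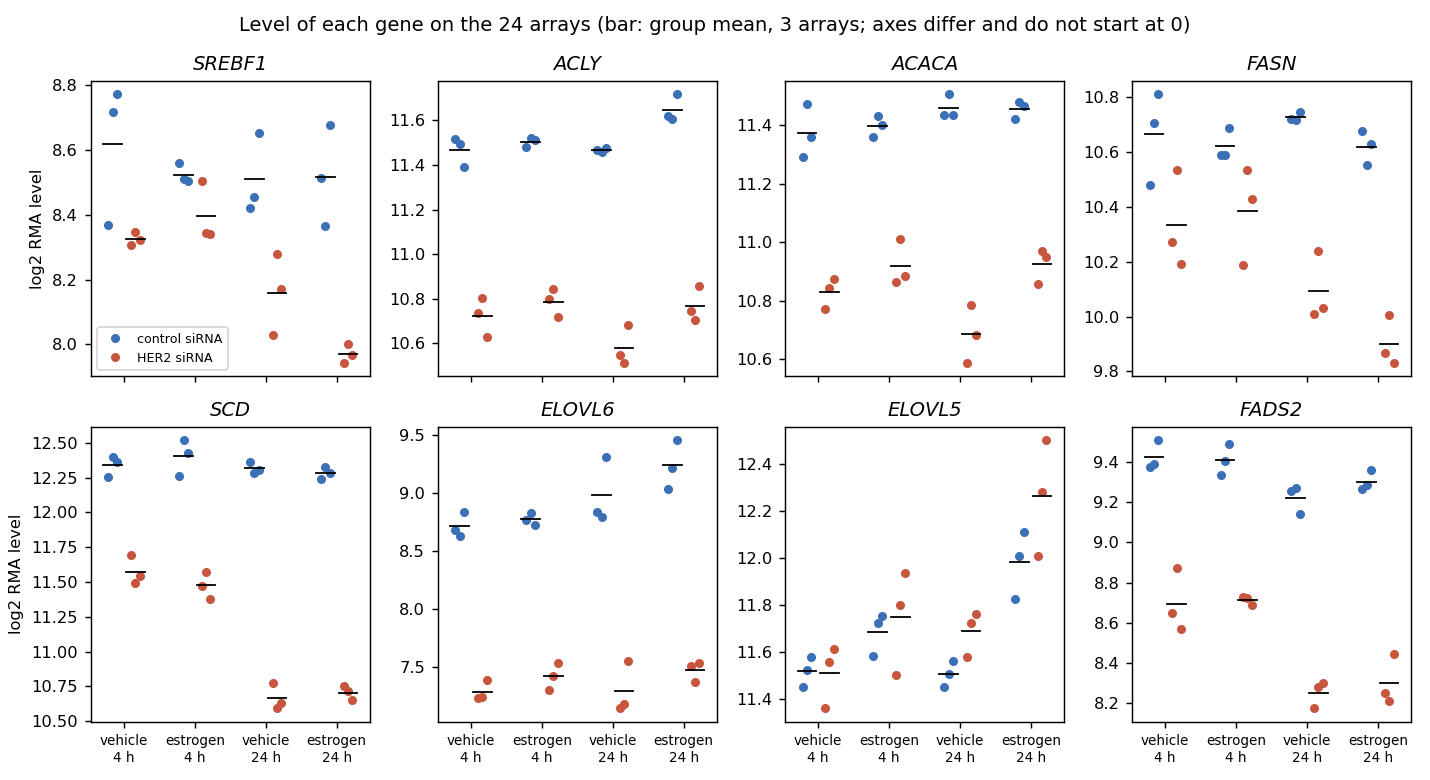
Log2 RMA level (vertical axes) of each of the 8 measured genes on every array, by siRNA, treatment and time (horizontal axis); points are arrays and bars are group means of 3. ELOVL6 sits between 7.15 and 7.56 with HER2 siRNA and between 8.63 and 9.46 with control siRNA, while the ELOVL5 arrays of the 2 siRNAs overlap.

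SREBF1 (chr17:17811334-17836986), the regulator of the set, fell the least of the 7. With vehicle at 4 h its arrays read 8.37, 8.72 and 8.77 with control siRNA and 8.31, 8.35 and 8.32 with HER2 siRNA. After 4 h of estrogen they read 8.56, 8.51 and 8.50 against 8.51, 8.34 and 8.34. All 3 HER2 siRNA arrays lay below the controls with vehicle, but 1 of the 3 reached into the control range with estrogen. At 24 h the vehicle arrays read 8.42, 8.46 and 8.65 with control siRNA and 8.03, 8.28 and 8.17 with HER2 siRNA. The estrogen arrays of that time read 8.51, 8.36 and 8.68 against 7.94, 8.0 and 7.97, and the groups stood apart in both. The averaged difference was -0.33 ± 0.05 (adjusted p = 4.97e-06 by limma), leaving 79.6% of the control level (74.1 to 85.4%). SREBF1 fell with vehicle at 4 h (-0.29 ± 0.10, adjusted p = 0.0256) and at 24 h (-0.35 ± 0.10, adjusted p = 0.00659). In estrogen it fell at 24 h (-0.55 ± 0.10, adjusted p = 0.000112) and did not pass at 4 h (-0.13, interval -0.33 to 0.08, adjusted p = 0.357). The 4 h vehicle call was lost (adjusted p up to 0.144) without replicate 2 or 3 of the control siRNA vehicle 4 h arrays or replicate 1 or 3 of the HER2 siRNA vehicle 4 h arrays, when only the 2 groups were fitted, and with the GAPDH measure described further on as a covariate.

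Among the enzymes that lead to palmitate, ACLY (chr17:41866917-41930545) was the most reduced. Its arrays spanned 11.39 to 11.72 with control siRNA (median 11.50) and 10.51 to 10.86 with HER2 siRNA (median 10.73), a gap wider than either range. ACLY differed by -0.81 ± 0.03 on average, leaving 57.2% of the control level (54.4 to 60.1%, adjusted p = 1.39e-14). By condition ACLY differed by -0.74, -0.89, -0.72 and -0.88 (vehicle at 4 and 24 h, then estrogen at 4 and 24 h), and all 4 passed.

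ACACA (chr17:37084992-37406836), the carboxylase that commits acetyl-CoA to fatty acid synthesis, spanned 11.29 to 11.51 with control siRNA (median 11.43) and 10.59 to 11.01 with HER2 siRNA (median 10.86). On average it differed by -0.58 ± 0.03, leaving 66.8% of the control level (63.6 to 70.2%, adjusted p = 2.48e-12). ACACA fell in all 4 conditions, by 0.55 and 0.77 on the log2 scale with vehicle at 4 and 24 h and by 0.48 and 0.53 with estrogen.

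FASN (chr17:82078338-82098236) was reduced less and, on the probe set used, less evenly. With vehicle at 4 h it stood at 10.48, 10.71 and 10.81 with control siRNA and at 10.27, 10.54 and 10.19 with HER2 siRNA, which overlap. With estrogen at that time the values were 10.59, 10.59 and 10.69 against 10.19, 10.54 and 10.43, where the highest HER2 siRNA array lay just under the lowest control array. By 24 h the groups were well apart. FASN stood at 10.72, 10.72 and 10.75 against 10.01, 10.24 and 10.03 with vehicle, and at 10.68, 10.55 and 10.63 against 9.87, 10.01 and 9.83 with estrogen. The averaged difference was -0.48 ± 0.05, leaving 71.7% of the control level (66.6 to 77.1%, adjusted p = 3.37e-08). FASN fell by 0.33 ± 0.10 at 4 h in vehicle (adjusted p = 0.0144), and at 24 h by 0.63 ± 0.10 in vehicle (adjusted p = 3.08e-05) and 0.72 ± 0.10 in estrogen (adjusted p = 6.39e-06), on the log2 scale. With estrogen at 4 h the difference of -0.24 did not pass (adjusted p = 0.0775), and it passed with the replicate number as a block (adjusted p = 0.0469). The 4 h vehicle call was lost (adjusted p up to 0.0887) when replicate 3 of the control group or replicate 1 or 3 of the HER2 siRNA group was left out, and when only these 2 groups were fitted.

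SCD (chr10:100347233-100364826), the stearoyl-CoA desaturase, fell further with HER2 siRNA at 24 h of vehicle or estrogen than at 4 h. With vehicle at 4 h its arrays read 12.26, 12.40 and 12.36 with control siRNA and 11.70, 11.49 and 11.54 with HER2 siRNA. With estrogen at 4 h they read 12.27, 12.52 and 12.43 against 11.47, 11.57 and 11.38. At 24 h the control siRNA arrays overlapped those of 4 h, at 12.36, 12.29 and 12.31 with vehicle and 12.24, 12.33 and 12.28 with estrogen. The HER2 siRNA arrays of 24 h were lower than all of those at 4 h, at 10.77, 10.59 and 10.63 with vehicle and 10.75, 10.71 and 10.65 with estrogen. SCD thus lay in 3 steps that did not overlap: the 12 control siRNA arrays, the 6 HER2 siRNA arrays at 4 h and the 6 at 24 h. The differences were -0.76 ± 0.08 and -0.93 ± 0.08 at 4 h (vehicle and estrogen) and -1.65 ± 0.08 and -1.58 ± 0.08 at 24 h, and all 4 passed. Averaged, SCD differed by -1.23 ± 0.04 (adjusted p = 2.65e-16), leaving 42.6% of the control level (40.3 to 45.1%), the 200th lowest value among the 14335 genes.

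ELOVL6 (chr4:110045846-110199202), the elongase that acts on palmitate, had the greatest reduction of the 8. With vehicle its arrays read 8.68, 8.63 and 8.83 at 4 h and 8.84, 8.80 and 9.31 at 24 h with control siRNA. The HER2 siRNA counterparts read 7.23, 7.25 and 7.39, then 7.15, 7.19 and 7.56. More than 1 log2 unit separated the lowest control array from the highest HER2 siRNA array. With estrogen ELOVL6 read 8.76, 8.83 and 8.72 at 4 h and 9.04, 9.22 and 9.46 at 24 h with control siRNA, against 7.30, 7.42 and 7.54, then 7.51, 7.37 and 7.54 with HER2 siRNA. The averaged difference was -1.56 ± 0.06 (adjusted p = 9.44e-15), leaving 34.0% of the control level (31.0 to 37.3%). By condition it was -1.43 and -1.69 with vehicle and -1.35 and -1.76 with estrogen (4 h, then 24 h), and all 4 passed.

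ELOVL5 (chr6:53267404-53348950), the elongase of polyunsaturated fatty acids, went apart from the other 7. With vehicle at 4 h it stood at 11.45, 11.52 and 11.58 with control siRNA and at 11.36, 11.56 and 11.61 with HER2 siRNA. With vehicle at 24 h the values were 11.45, 11.50 and 11.56 against 11.58, 11.72 and 11.76. The groups overlapped at 4 h, and at 24 h all 3 HER2 siRNA arrays lay above the controls. With estrogen ELOVL5 stood at 11.58, 11.72 and 11.75 against 11.50, 11.80 and 11.94 at 4 h, and at 11.82, 12.01 and 12.11 against 12.01, 12.28 and 12.50 at 24 h, where the siRNA groups overlapped. The averaged difference was 0.13 ± 0.06 (interval 0.01 to 0.25), or 109% of the control level (101 to 119%), and did not pass (adjusted p = 0.0601). By condition it was -0.01 and 0.18 with vehicle and 0.06 and 0.28 with estrogen (4 h, then 24 h). The last of these (adjusted p = 0.0558) passed without control siRNA estrogen 24 h replicate 3, HER2 siRNA estrogen 24 h replicate 1 or HER2 siRNA estrogen 4 h replicate 1 or 3 (adjusted p from 0.00809). The array numbered replicate 1 was the lowest of its group in 8 of 8 groups for ELOVL5, as it was for ACACA. With the replicate number as a block ELOVL5 passed as higher with vehicle at 24 h (adjusted p = 0.0382) and averaged (adjusted p = 0.00281). Leaving out single arrays gave averaged adjusted p-values from 0.0137 to 0.128, and it passed without control siRNA estrogen 24 h replicate 3 or without replicate 1 of any 1 HER2 siRNA group. Other ways of processing also called the averaged value higher, and the count is given under how the results depend on the processing.

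FADS2 (chr11:61816203-61867354), the delta-6 desaturase at the head of the polyunsaturated branch, spanned 9.14 to 9.51 with control siRNA (median 9.35) and 8.17 to 8.87 with HER2 siRNA (median 8.50). FADS2 differed by -0.85 ± 0.04 on average, leaving 55.4% of the control level (52.3 to 58.8%, adjusted p = 8.11e-14). Both 4 h differences were smaller (-0.73 and -0.70, vehicle and estrogen) than those at 24 h (-0.97 and -1.0), and all 4 passed. FADS1 (chr11:61799627-61817003), which has no value here, starts head to head with FADS2, and the 2 genes overlap by 801 bases in RefSeq. ACSL3 lies at chr2:222861036-222944639.

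**Figure D2:**
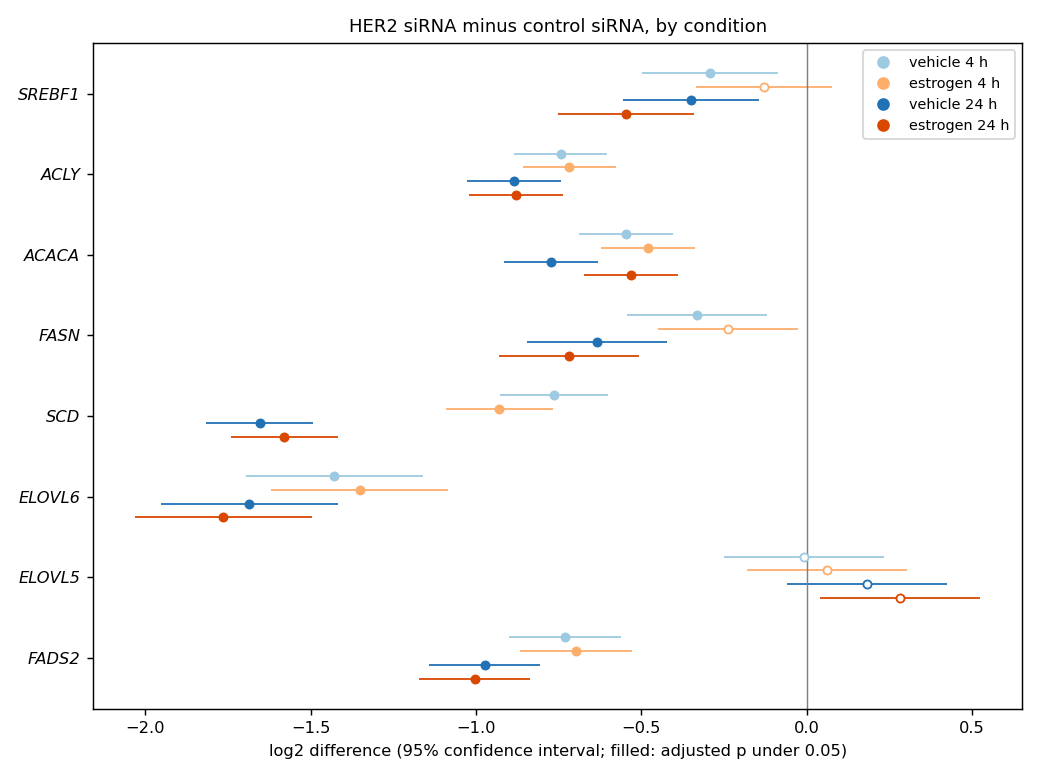
Log2 difference of HER2 siRNA minus control siRNA (horizontal axis) for the 8 measured genes in each of the 4 conditions, with 95% confidence intervals; filled points have an adjusted p under 0.05 by limma. SCD moves from -0.76 and -0.93 at 4 h to -1.65 and -1.58 at 24 h, and ELOVL5 stays near 0 or above it.

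Taking vehicle first, 7 of the 8 genes fell at 4 h (17.8% of all genes fell and 34.2% passed in either direction) and 7 at 24 h (21.8% and 41.5%). In estrogen 5 of the 8 fell at 4 h (17.3% and 34.1%) and 7 at 24 h (20.5% and 42%). The 2 genes that did not pass with estrogen at 4 h beside ELOVL5 were FASN and SREBF1. A difference between estrogen and vehicle in the size of the siRNA effect was not shown for either gene at 4 h (SREBF1 0.16, interval -0.13 to 0.45, FASN 0.09, interval -0.20 to 0.39).

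Other probe sets of the same genes were examined one by one among 26502 probe sets. Averaged over the conditions, SREBF1's second probe set differed by -0.24, those of ACLY by -0.62 and -0.82, that of ACACA by -0.61 and that of FASN by -0.42. The remaining SCD probe sets differed by -1.26, -1.35 and -1.43, those of ELOVL6 by -1.77 and -0.92, and that of FADS2 by -0.40. Each of these passed as lower. By condition they did not all pass. SREBF1's second probe set differed by -0.20 and -0.08 with vehicle and by -0.26 and -0.42 with estrogen (4 h, then 24 h). Of these only the last passed. FASN's second probe set differed by -0.44 and -0.31 with vehicle and by -0.40 and -0.52 with estrogen (4 h, then 24 h). Of these the first and the last passed. The 3 further probe sets of ELOVL5 differed by 0.02, 0.17 and 0.05, of which the second passed as higher (adjusted p = 0.0394), and all 3 had mean levels under 6.

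Whether 2 genes of the set differed in how far they fell was tested on the difference between them within each array. An exact permutation test rearranged siRNA labels within each condition in 160000 ways, so the smallest p it allows is 1.25e-05, and p-values (2-sided) were adjusted over the 5 pairs that could be run. The 2 elongases parted most, ELOVL6 falling by 1.69 ± 0.06 more than ELOVL5 (exact permutation, adjusted p = 6.25e-05). SCD fell further than the other measured desaturase, FADS2 (-0.38 ± 0.05, exact permutation, adjusted p = 0.000646), though by condition the gap ran from -0.68 to -0.03. ACLY fell further than FASN (-0.33 ± 0.06, exact permutation, adjusted p = 9.38e-05). SREBF1 fell less than FASN (0.15 ± 0.06, exact permutation, adjusted p = 0.0151), a call lost without the 3 arrays numbered apart in the labels (0.095, exact permutation, adjusted p = 0.0702). Between ACACA and FASN the difference was -0.10 ± 0.04 and did not pass (exact permutation, adjusted p = 0.0883), with 1 of the 4 conditions going the other way. These are differences on each probe set's own log2 scale.

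The siRNA effect itself differed between times for 2 genes, SCD and FASN. As a difference of the 24 h effect minus the 4 h effect, each averaged over vehicle and estrogen, SCD gave -0.77 ± 0.08 (adjusted p = 1.86e-05) and FASN -0.39 ± 0.10 (adjusted p = 0.0404). Over all genes 2.95% passed in either direction and 1.22% as lower, and the SCD value was the 16th lowest. FADS2 (-0.27 ± 0.08, adjusted p = 0.068), ELOVL6 (-0.33 ± 0.13, adjusted p = 0.175) and SREBF1 (-0.24 ± 0.10, adjusted p = 0.216) had negative values that did not pass. With the replicate number as a block FADS2 (adjusted p = 0.0461) and ELOVL6 (adjusted p = 0.0405) passed as well. The FASN call was lost in 18 of the 24 fits that left out 1 array (adjusted p from 0.0202 to 0.0756). Without the array whose labels disagree on the time it was 0.0571. In these fits the call held only without HER2 siRNA vehicle 24 h replicate 2, HER2 siRNA estrogen 24 h replicate 2, control siRNA vehicle 4 h replicate 3, control siRNA estrogen 4 h replicate 3, HER2 siRNA vehicle 4 h replicate 3 or HER2 siRNA estrogen 4 h replicate 1. FASN's second probe set gave 0.00 for this difference (adjusted p = 0.995, mean level 6.44). For SCD the 3 other probe sets gave -0.37, -0.52 and -0.66, of which the last passed (adjusted p = 0.0307).

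Set out as 24 h against 4 h within each condition, the same arrays showed where the levels moved. In control siRNA with vehicle none of the 8 genes passed (0.781% of all genes did, and 1 of the 8 had an unadjusted p under 0.05 by limma). In control siRNA with estrogen ELOVL6 rose (0.46 ± 0.13, adjusted p = 0.0352, 2.53% of all genes rising and 5.96% passing), a call lost without control siRNA estrogen 24 h replicate 2 or 3 or any 1 of the 3 control siRNA estrogen 4 h arrays (adjusted p up to 0.198). With HER2 siRNA and vehicle, SCD (-0.91 ± 0.08, adjusted p = 9.41e-07) and FADS2 (-0.44 ± 0.08, adjusted p = 0.00271) fell, where 3.43% of all genes fell and 6.46% passed. ERBB2 was higher at 24 h than at 4 h in that condition (0.44 ± 0.11, adjusted p = 0.021).

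With HER2 siRNA and estrogen 5 of the 8 genes moved between 4 and 24 h (6.21% of all genes passed, 3.15% as lower and 3.06% as higher). SCD (-0.77 ± 0.08), FASN (-0.48 ± 0.10), SREBF1 (-0.43 ± 0.10) and FADS2 (-0.41 ± 0.08) fell and ELOVL5 rose (0.52 ± 0.12), with adjusted p-values from 1.88e-06 for SCD to 0.0108 for SREBF1. The SREBF1 call was lost without HER2 siRNA estrogen 4 h replicate 1 (adjusted p = 0.0659). The ELOVL5 call was lost without that array or without HER2 siRNA estrogen 24 h replicate 3 (adjusted p up to 0.0808). These comparisons share arrays with the siRNA comparisons and are other views of the same levels.

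Calls for estrogen among the 8 genes are given beside the share of all genes that passed, and whether the list differs from all genes was not tested. After 4 h none of the 8 passed with control siRNA (0.342% of all genes passed) or with HER2 siRNA (0.698%), and by limma none had an unadjusted p under 0.05 in either. The values ran from -0.09 to 0.17 with control siRNA and from -0.10 to 0.24 with HER2 siRNA, ELOVL5 being the highest in both. With either siRNA no 95% interval of a 4 h value reached past 0.48 in size.

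After 24 h of estrogen ELOVL5 rose in both siRNA groups. With control siRNA its arrays went from 11.45, 11.50 and 11.56 with vehicle to 11.82, 12.01 and 12.11 with estrogen, without overlap. The difference was 0.48 ± 0.12 (adjusted p = 0.00816), or 139% of vehicle (118 to 164%), and ELOVL5 was the 1 gene of the 8 to pass where 13.5% of all genes did and 7.01% rose. The call was lost without control siRNA estrogen 24 h replicate 3 (adjusted p = 0.0517). With HER2 siRNA its arrays went from 11.58, 11.72 and 11.76 to 12.01, 12.28 and 12.50, again without overlap. The difference was 0.58 ± 0.12 (adjusted p = 0.0027), or 149% of vehicle (126 to 176%). It missed the threshold when only these 2 groups were fitted (adjusted p = 0.0558). Its other probe sets differed by 0.23, 0.33 and 0.26 with control siRNA, none passing, and by 0.35, 0.52 and 0.11 with HER2 siRNA, of which the second passed (adjusted p = 0.0342).

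ACACA was the second gene to pass with HER2 siRNA at 24 h, where 6.17% of all genes did and 4.28% rose. Its arrays went from 10.59, 10.79 and 10.68 with vehicle to 10.86, 10.97 and 10.95 with estrogen, a difference of 0.24 ± 0.07 (adjusted p = 0.0379). The call was lost without HER2 siRNA vehicle 24 h replicate 1 or 3 or HER2 siRNA estrogen 24 h replicate 2 or 3 (adjusted p up to 0.18). With control siRNA ACACA did not move detectably (interval -0.14 to 0.14). Its second probe set differed by 0.17 with control siRNA and 0.18 with HER2 siRNA, and neither passed (adjusted p = 0.437 and 0.606 by limma). When probe sets were fitted one by one, the ACACA probe set used here did not pass with HER2 siRNA (adjusted p = 0.0625 by limma). ACLY was 0.18 ± 0.07 and 0.19 ± 0.07 higher with estrogen (control and HER2 siRNA), its arrays not overlapping in either, and neither passed (adjusted p = 0.0836 and 0.124).

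The remaining genes gave intervals at 24 h that bound the estrogen effect. SCD differed by -0.03 (-0.20 to 0.13) with control siRNA and by 0.04 (-0.12 to 0.20) with HER2 siRNA. FADS2 differed by 0.08 (-0.09 to 0.25) and 0.05 (-0.12 to 0.22). FASN differed by -0.11 (-0.32 to 0.10) and -0.19 (-0.40 to 0.02), its estrogen arrays lying below its vehicle arrays in both. SREBF1 differed by 0.01 (-0.20 to 0.21) and -0.19 (-0.39 to 0.02), and ELOVL6 by 0.25 (-0.01 to 0.52) and 0.18 (-0.09 to 0.44).

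**Figure D3:**
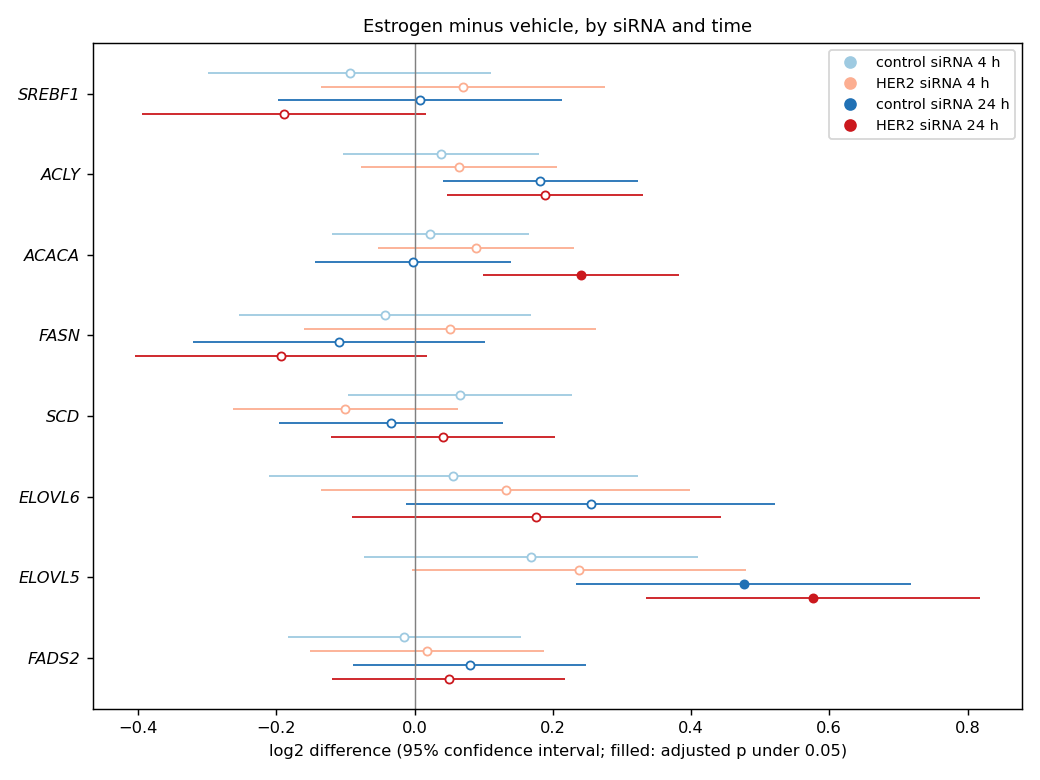
Log2 difference of estrogen minus vehicle (horizontal axis) for the 8 measured genes with control or HER2 siRNA at 4 and 24 h, with 95% confidence intervals; filled points have an adjusted p under 0.05 by limma. The filled points are ELOVL5 at 24 h with control siRNA (0.48) and HER2 siRNA (0.58), and ACACA at 24 h with HER2 siRNA (0.24).

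No member's response to estrogen differed between the siRNAs by the test of that difference. At 4 h none of the 8 passed and none had an unadjusted p under 0.05 by limma (0% of all genes passed). At 24 h none passed and 1, ACACA, had an unadjusted p under 0.05 by limma (0.0628% of all genes passed), with a difference of 0.24 (interval 0.04 to 0.44, adjusted p = 0.677). For ELOVL5 the difference was 0.10 (interval -0.24 to 0.44). No difference of an estrogen effect between 24 and 4 h passed either (0 of 8, 1 with an unadjusted p under 0.05 by limma, 3.49% of all genes passing), where ELOVL5 gave 0.32 ± 0.12 (adjusted p = 0.155). With the replicate number as a block ELOVL5 passed this test (adjusted p = 0.00698).

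Cells with HER2 siRNA and estrogen for 24 h were set against cells with neither. Of the 8 genes 7 were lower and 1 was higher, where 20% of all genes were lower, 18.9% higher and 38.9% either. SCD (-1.61 ± 0.08) and ELOVL6 (-1.51 ± 0.13) were again the furthest down, at 32.7% and 35.1% of the control siRNA vehicle level. FADS2 (-0.92), FASN (-0.83), ACLY (-0.70), SREBF1 (-0.54) and ACACA (-0.53) followed. ELOVL5 was 0.76 ± 0.12 higher (adjusted p = 2.1e-05), at 169% (143 to 200%). This comparison shares its arrays with those of siRNA and estrogen.

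Ordered by group mean, ELOVL5 went from 11.51 ± 0.13 (SD, n = 3) in HER2 siRNA vehicle 4 h and 11.51 ± 0.05 in control siRNA vehicle 24 h up to 11.98 ± 0.15 in control siRNA estrogen 24 h and 12.27 ± 0.25 in HER2 siRNA estrogen 24 h. Between these ends lay 11.52 ± 0.06 (control siRNA vehicle 4 h), 11.69 ± 0.09 (control siRNA estrogen 4 h), 11.69 ± 0.10 (HER2 siRNA vehicle 24 h) and 11.75 ± 0.22 (HER2 siRNA estrogen 4 h). Neighbours in this order overlapped, except that the control siRNA arrays with estrogen at 4 h lay just above those with vehicle at 4 h. SREBF1 ran from 7.97 ± 0.03 in HER2 siRNA estrogen 24 h through 8.16 ± 0.13, 8.33 ± 0.02 and 8.40 ± 0.10 in the other HER2 siRNA groups (vehicle 24 h, vehicle 4 h, estrogen 4 h). Its control siRNA groups lay close together from 8.51 to 8.62.

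Across the 24 arrays the 28 pairs of measured genes had Pearson correlations from -0.47 to 0.97 (median 0.84). The arrays come from 2 siRNA groups, between which most of these genes differed, and these values include that difference. Within groups, after each group's mean was taken out, they ran from -0.23 to 0.53 (median 0.14). The genes whose levels over the 24 arrays were most like the mean of the 8 were WASF3 (r = 0.981), RAB3IP (0.981), AURKA (0.979), SRSF1 (0.978) and USP14 (0.976). For SREBF1 they were MACROH2A1 (0.903), IDH2 (0.899), PSMB3 (0.895), RNF34 (0.885) and FASN (0.885), the last a listed gene. All of these share the same arrays and the same 2 siRNA groups, and the values are descriptions.

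Genes around the pathway were read from lists, with up to 4 named per list by smallest adjusted p. Their counts for the averaged siRNA effect stand beside 59.2% of all genes passing, 30.1% as higher and 29.1% as lower, and a share near these says nothing particular to a list. Of 12 tested regulators of SREBP and of the carbohydrate response, 5 rose and 4 fell with HER2 siRNA (median 0.03). INSIG1, which holds the SREBP carrier in the endoplasmic reticulum and is itself an SREBP target, fell by 1.76 ± 0.08 on the log2 scale. Its relative INSIG2 rose (0.76 ± 0.05), as did MBTPS1, the protease that makes the first cut in SREBP (0.44 ± 0.05), and SREBF2, the sterol-directed partner of SREBF1, fell (-0.36 ± 0.05). Of 9 genes that supply acetyl-CoA or NADPH, 7 fell and none rose (median -0.37). They included ME1, the cytosolic malic enzyme that yields NADPH (-1.02 ± 0.08), its mitochondrial counterpart ME2 (-0.44), citrate synthase CS (-0.41) and the citrate carrier SLC25A1 (-0.37).

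Of 10 other genes of carboxylation and fatty acid synthase activity 5 rose and 3 fell (median 0.11), and 3 of the 4 named encode subunits of AMP-activated kinase, which phosphorylates and inhibits acetyl-CoA carboxylase: PRKAA1 (0.50 ± 0.11), PRKAG1 (0.25 ± 0.05) and PRKAB2 (0.22 ± 0.05). The other was OXSM of mitochondrial fatty acid synthesis (0.30 ± 0.04). The list holds further subunits of AMP-activated kinase that the naming rule left out, so the kinase as a whole is not described. Of 10 other elongation and desaturation genes 7 fell and 3 rose (median -0.57). HSD17B12 and HACD2, which carry out the reduction and dehydration steps of the elongation cycle, fell by 0.93 and 0.66 on the log2 scale. SCD5, a second stearoyl-CoA desaturase, fell by 0.90 and CYB5R3, which feeds electrons to desaturases through cytochrome b5, by 0.54. SCD5 passed as lower on 2 of its 4 probe sets and on none as higher.

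Among 10 genes of acyl-CoA handling 5 fell and 3 rose (median -0.13), with ACOT7, an acyl-CoA thioesterase, at -1.20 ± 0.05, the transporter and ligase SLC27A2 at -0.55, the ligase ACSL1 at -0.38 and the acyl-CoA binding protein DBI at -0.31. Of 16 genes of glycerolipid synthesis and lipid droplets 7 fell and 4 rose (median -0.10). GPAT3, a glycerol-3-phosphate acyltransferase, rose (1.41 ± 0.10), while the phosphatidate phosphatases LPIN1 (-0.66) and LPIN2 (-0.34) and the lipase MGLL (-0.49) fell. Of 17 oxidation genes 6 rose and 5 fell (median -0.01), among them PDK4, which restrains pyruvate dehydrogenase (0.79 ± 0.10), and the medium-chain dehydrogenase ACADM (0.52) upward, and HADHA (-0.43) and ETFA (-0.32) downward. Both tested genes of lipid uptake and binding fell, FABP5 (-0.61) and VLDLR (-0.56).

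Cholesterol synthesis, the sister pathway under SREBP-2, had 13 of 15 tested genes lower and 1 higher (median -0.46), a direction already known for these arrays when the list was chosen. DHCR7 (-1.24), EBP (-1.09) and SQLE (-0.88) fell on every one of their probe sets. IDI1 fell (-1.17 ± 0.05) on the probe set used, but of its 4 probe sets 2 passed as lower and 2 as higher, so its direction depends on the probe set. Beside these lists the 8 measured genes had a median of -0.69, and whether the lists differ from each other was not tested.

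**Figure D4:**
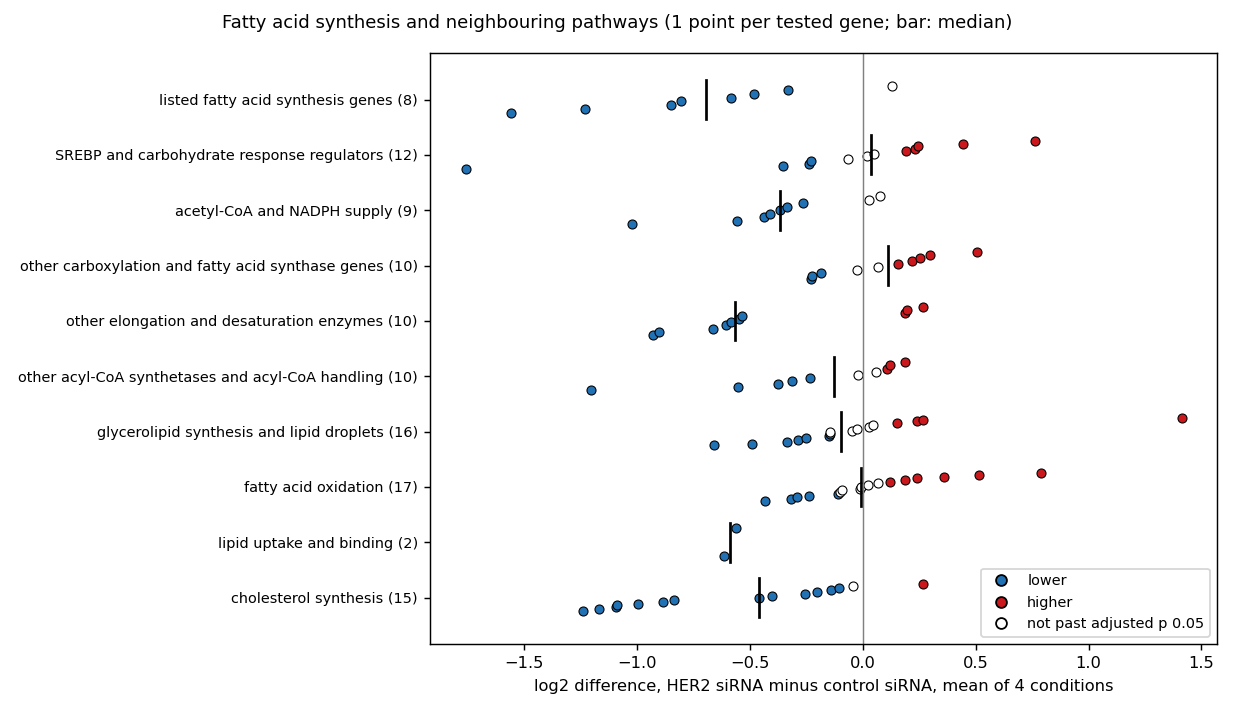
Log2 difference of HER2 siRNA minus control siRNA, mean of 4 conditions (horizontal axis), for each tested gene of 10 lists (rows, number tested in brackets); blue and red points passed an adjusted p of 0.05 by limma as lower and higher, open points did not, and the upright bar is the list's median. Medians run from -0.69 for the listed fatty acid synthesis genes to 0.11 for other carboxylation and synthase genes.

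With estrogen for 24 h in control siRNA cells each of these lists held between 0 and 4 calls, where 13.5% of all genes passed. INSIG2 fell (-0.65 ± 0.09, adjusted p = 6.42e-05) and was the 1 of 12 regulators to pass. None of 9 supply genes and none of 17 oxidation genes passed, with 3 and 6 at an unadjusted p under 0.05 by limma. GPAT3 (-0.98 ± 0.21, adjusted p = 0.00277) and MGLL (-0.33 ± 0.09, adjusted p = 0.0199) fell, ACOT7 rose (0.53 ± 0.10, adjusted p = 0.00117), and FABP5 rose (0.75 ± 0.17, adjusted p = 0.0057). SLC27A2 (0.39), EBP (0.36) and FDPS (0.25) rose and PRKAB2 (-0.35), SCD5 (-0.34) and CYB5R3 (-0.21) fell. MGLL and these last 6 were each lost on leaving out 1 of at least 3 arrays, with adjusted p-values up to 0.169.

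The label of the line was checked on markers. All 8 luminal epithelial markers were tested, with mean levels from 9.01 (ESR1) to 13.42 (KRT18). Their levels were not constant. For the averaged siRNA effect GATA3 rose (0.53 ± 0.04), and KRT19 (-0.26 ± 0.04), KRT18 (-0.15 ± 0.03) and KRT8 (-0.15 ± 0.05) fell. With estrogen for 24 h in control siRNA cells GATA3 (-0.95 ± 0.09) and FOXA1 (-0.40 ± 0.09) fell. Adipocytes make these enzymes in quantity, and of their 6 markers ADIPOQ (mean level 3.18), LEP (4.44) and FABP4 (4.05) were below the filter. PLIN1 was at 6.16 and 0.53 ± 0.09 higher with HER2 siRNA, CIDEC at 6.12 and PLIN4 at 5.53. The log2 of the 6 adipocyte markers' summed level ran from 7.68 to 7.90 on control siRNA arrays and from 7.88 to 8.13 on HER2 siRNA arrays, ranges that overlap from 7.88 to 7.90, and the part of the adipocyte markers in the results was not tested. PTPRC, CDH5, KDR, COL3A1 and PDGFRB, markers of leukocytes, endothelium and fibroblasts, were below the filter as well. Other markers of these lists were not: COL1A1 had a mean level of 9.58 and rose with HER2 siRNA (0.35 ± 0.07, adjusted p = 0.000176), VWF was at 7.28 and fell (-0.32 ± 0.07, adjusted p = 0.000235, and 0.107 with the GAPDH 3′ to 5′ ratio as a covariate), and LYZ was at 4.84 and rose (1.08 ± 0.17, adjusted p = 7.96e-06). DCN (5.69), PECAM1 (5.81), CD3E (5.28) and COL1A2 (4.95) were tested and did not pass for the averaged siRNA effect. The part of these markers in the results was not tested. Summed levels of the leukocyte markers ran from 5.97 to 6.40 with control and 6.11 to 6.98 with HER2 siRNA, of the fibroblast markers from 9.26 to 10.07 and 9.65 to 10.18, and of the endothelial markers from 7.80 to 8.25 and 7.52 to 8.06.

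RNA quality moved with the siRNA. The log2 difference between the 3′ and 5′ control probe sets of GAPDH was 0.305 ± 0.066 (SD, n = 12) with control siRNA and 0.443 ± 0.060 with HER2 siRNA, and that of ACTB was 1.17 ± 0.29 and 1.40 ± 0.33, whose part in the results was not tested. With the GAPDH measure of each array as a covariate the averaged siRNA difference was -1.42 for ELOVL6, -1.27 for SCD, -0.93 for FADS2, -0.85 for ACLY, -0.66 for ACACA, -0.61 for FASN and -0.33 for SREBF1, and all 7 still passed. ELOVL5 then gave 0.11 (adjusted p = 0.376). Array medians lay between 5.28 and 5.36, and correlations within groups over all probe sets between 0.991 and 0.997.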

How the data were processed

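Total RNA of BT-474 cells was labelled from the 3′ end and hybridised to 24 Affymetrix arrays. The values, deposited by the authors, are log2 levels, 1 per probe set and array, made by RMA per the submitters' processing notes. Its software version is not given in the sources used here.

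Of 54675 probe sets, 41091 had 1 gene symbol, 1801 several and 11721 none, and 62 were controls. Symbols were updated through Entrez identifiers (41037 matched). Each gene was read from its own probe set with the highest mean, and tested if 3 or more arrays reached a log2 level of 5. With limma 3.58.1 (R 4.3.3) a mean for each group was fitted to the 24 arrays together (total degrees of freedom 20.9), with 18 comparisons, Benjamini-Hochberg adjustment over 14335 genes and a threshold of 0.05. The fit and the permutation test were tested on simulated data. Python 3.11.15 was used for permutation tests and figures. Pairs with FADS1 or ACSL3 could not be run.

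The members, lists and tests were chosen with earlier results of these data known. Named genes are the members, ERBB2, up to 4 genes per list by smallest adjusted p for the averaged siRNA effect, up to 2 for estrogen at 24 h with control siRNA, and the 5 most like the mean of the members and like SREBF1. List genes with no probe set of their own in the annotation used here were left out.

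Equal replicate numbers come from the labels, which do not say that they mark a shared batch. Deviations from group means correlated over 0.1 in every pair in 6 of 13 comparisons of 2 groups, those of siRNA with vehicle at 4 h (from 0.13) and 24 h (from 0.34) and with estrogen at 4 h (from 0.27) among them. The main fit carried no replicate block, so standard errors, intervals and adjusted p-values are unpaired unless a block is named. The block was run as an alternative. Its value is printed where it changes a call, also for comparisons that combine more than 2 groups. In 21 of 24 arrays the correlation was highest with arrays of the same number.

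The results were recomputed with no filter or a minimum of 7, with the replicate block alone or beside the label number series, and without the 3 arrays numbered apart. Further alternatives averaged a gene's probe sets, set array medians equal, quantile-normalised the levels again, weighted the arrays, let the prior follow intensity robustly, took the GAPDH measure as covariate, fitted only the groups compared, or left out each array in turn.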

Additional observations from a re-analysis of the deposited data

Results flagged for a closer look

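Of the 8 measured genes, 2 had a HER2 siRNA effect that differed between 24 and 4 h by the test of that difference (24 h minus 4 h, limma over all 14335 genes). For SCD, the stearoyl-CoA desaturase, the difference was -0.77 (adjusted p = 1.86e-05), and it was past the threshold in every one of the 35 alternatives run. Taken one by one, its other probe sets gave -0.37, -0.52 and -0.66, and only the last passed (adjusted p = 0.0307 by limma). For FASN, fatty acid synthase, the difference was -0.39 (adjusted p = 0.0404), and it was lost in 21 of 35 alternatives, with adjusted p-values up to 0.313. No member group of 3 arrays is large enough for a check of single arrays that stand apart.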

How the results depend on the processing

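Over the comparisons and alternatives run for the 8 measured genes and ERBB2, 5692 of 5805 values kept their direction and side of the threshold, 62 calls were lost, 51 were gained and none reversed. For the averaged siRNA effect, the calls of the 7 genes that fell were kept in all 35 alternatives, and ELOVL5 was called higher in 13 of them (over all 35 its value ran from 0.095 to 0.17 and its adjusted p from 0.00281 to 0.376). Equal medians moved the median of all genes for that comparison to -0.02 from -2.3e-06, and the share of calls that were higher to 47.4% from 50.8%.

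Counts of the 8 genes past the threshold that moved by more than 1.5 times were these. For the siRNA effect at 24 h minus that at 4 h the count was 2, and it became 1 with no filter, 4 with the replicate block and 1 with the mean of probe sets. For estrogen at 24 h with control siRNA the count of 1 became 2 with a minimum level of 7, 2 with quantile normalisation, 3 with array weights and 2 with a trend and robust prior. With HER2 siRNA the count of 2 became 1 with no filter, 1 with array weights and 0 when only the groups compared were fitted. For estrogen at 24 h minus 4 h the count of 0 became 1 with the replicate block, alone (ELOVL5, adjusted p = 0.00698) or with the label number series. For 24 h against 4 h in control siRNA with estrogen the count of 1 became 2 with the block (either form, ELOVL5 added, adjusted p = 0.00996 with the block alone), 0 with the mean of probe sets, 2 with array weights and 0 with only the groups compared. In HER2 siRNA with vehicle the count of 2 became 1 with only the groups compared. In HER2 siRNA with estrogen the count of 5 became 3 without the 3 arrays numbered apart and 2 with only the groups compared. ACACA fell further than FASN past the threshold with the mean of probe sets (-0.15) and without the arrays numbered apart (-0.13). The difference of SREBF1 from FASN no longer passed without those arrays (0.095). The cause was not tested in any of these. The replicate number as a block changed no other count of the 8 genes by more than 1.5 times.

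Leaving out each array in turn, the count of genes past the threshold ran from 7 to 8 for the averaged siRNA effect. By condition it ran from 5 to 7 (vehicle 4 h), 7 to 7 (vehicle 24 h), 5 to 6 (estrogen 4 h) and 7 to 8 (estrogen 24 h). It ran from 1 to 3 for the siRNA effect at 24 h minus 4 h. For estrogen it was 0 to 0 at 4 h with either siRNA, 0 to 2 at 24 h with control siRNA and 1 to 2 with HER2 siRNA, and 0 to 0 for its differences between siRNAs and between times. It was 8 to 8 for HER2 siRNA with estrogen at 24 h against control siRNA with vehicle. For 24 h against 4 h it was 0 to 0 (control siRNA vehicle), 0 to 1 (control siRNA estrogen), 2 to 2 (HER2 siRNA vehicle) and 3 to 5 (HER2 siRNA estrogen). The pair differences ran from -1.72 to -1.65 (ELOVL6 and ELOVL5), -0.40 to -0.35 (SCD and FADS2), -0.35 to -0.30 (ACLY and FASN), 0.11 to 0.18 (SREBF1 and FASN) and -0.13 to -0.078 (ACACA and FASN). A fit to only the groups compared was not applicable where a comparison uses all 8 groups. With 3 arrays in a group, a difference whose printed interval includes 0 was not detected, which does not show that it is absent. The intervals are not adjusted over genes, so a difference whose interval excludes 0 may still not have passed.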
